A study of Mus musculus with 67 samples.

Results

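Transcripts of 10 genes of the bone morphogenetic protein (BMP) pathway were followed in mouse intestinal organoids and crypts. The genes were taken by name from the 29579 genes of the deposited table, with earlier results of these data known. They are the ligands Bmp2 and Bmp4, the type I receptor Bmpr1a, the inhibitors Smad6, Smad7 and Bambi, and the target genes Id1, Id2, Id3 and Id4. The table lists all 10 genes in 67 bulk RNA-seq libraries, of which 49 are from organoids (10 culture conditions) and 18 from crypts (9 groups). Values are in TPM, a share of all transcripts that is scaled by transcript length, so that levels can also be compared between genes of a library.

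Organoids were grown from crypts of the proximal small intestine of mice aged 6 to 12 weeks. The ENR condition had 7 libraries and contained R-Spondin 1 at 500 ng/mL, noggin at 100 ng/mL and EGF at 50 ng/mL. The 8C condition had 7 libraries and contained 10% conditioned medium of R-Spondin 1, bFGF at 20 ng/mL, EGF at 50 ng/mL, and the small molecules LDN193189 (0.2 µM), GSK3iXV (0.1 µM), Pexmetinib (1 µM), VPA (500 µM) and EPZ6438 (2 µM). Noggin binds BMP ligands outside the cell, and LDN193189 blocks the kinases of BMP type I receptors. Each organoid condition therefore held 1 of the BMP inhibitors, and none shows the pathway without one. VPA inhibits histone deacetylases and EPZ6438 inhibits the histone methyltransferase EZH2. Both were left out in 8C -VE (7 libraries), VPA alone in 8C -V (6 libraries) and EPZ6438 alone in 8C -E (7 libraries). Single omissions of GSK3iXV, Pexmetinib, bFGF or EGF from 8C had 3 libraries each, and ENR with VPA and EPZ6438 (ENR +VE, whose doses are not given in the sources used here) had 3. Crypts came from female mice of 8 weeks, either not irradiated (Normal) or taken on day 1, 2, 3 or 5 after a single dose of 12 Gy (IR). On each of these days a further group of irradiated mice had received VPA at 40 mg/kg and EPZ6438 at 0.6 mg/kg by daily gavage (+VE). Each crypt group had 2 libraries. The study names mice as the replicates of its expression data, with fewer mice than the 7 libraries of the larger organoid conditions, and the labels do not tie a library to a mouse or culture. Some libraries may therefore share a mouse, and p-values measure only the spread between libraries, which may be technical.

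BMP ligands bring type I and type II receptors together, and the type I receptor then phosphorylates SMAD1, SMAD5 and SMAD9, which enter the nucleus with SMAD4. The Id genes are among the most direct targets of these SMADs. Their products lack a DNA-binding domain and hold E proteins, the partners of lineage-determining factors, away from DNA. Smad6, Smad7 and Bambi are also induced by the pathway and act back on it as inhibitors. In the small intestine BMP signalling is strong along the villus and is held low at the crypt base by secreted antagonists, and this is why noggin is a standard component of organoid medium.

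The epithelial markers Epcam, Cdh1, Krt8, Krt18, Vil1 and Cldn7 summed to between 6424 and 12281 TPM per organoid library. The sum of 6 endothelial markers stayed at or below 2.75 TPM and that of 8 mesenchymal markers at or below 6.29 TPM. The sum of 7 immune markers was at or below 6.37 TPM in the other 9 conditions and reached 67.2 TPM in 8C, where Cd74 reached 66.1 TPM. The Paneth cell markers Lyz1, Ang4, Mmp7 and Defa24 summed to between 767 and 2748 TPM in 8C, 6571 and 10485 TPM in 8C -VE, 7855 and 9410.0 TPM in ENR and 2959.9 and 3299 TPM in ENR +VE. The enterocyte markers (Fabp1, Apoa1, Alpi, Rbp2 and Reg1) summed to between 1259 and 3809 TPM in 8C, 1017 and 3484 TPM in 8C -VE, 1624 and 9923 TPM in ENR, 9098 and 10418 TPM in ENR +VE, and 408 and 438 TPM in 8C -EGF, below every other condition. The stem cell markers Lgr5, Ascl2, Olfm4, Cd44 and Smoc2 summed to between 510.2 and 1559 TPM in 8C and 1956 and 3559.8 TPM in ENR. The part of these markers in the results below was not tested. In such bulk libraries, fewer cells of a type and less RNA per cell cannot be told apart.

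In organoids the transcripts that changed were those of Bmp4, Bambi, Smad6, Id1, Id2 and Id3. Bmp2 and Bmpr1a were called in no comparison of 2 organoid conditions, and Smad7 and Id4 only under alternatives given with these genes. A gene was called when limma gave a Benjamini-Hochberg adjusted p under 0.05 over all genes tested and values of log2(TPM + 1) differed by 2-fold or more. Between 8C and ENR, 3 of 10 members tested were called (2 higher, 1 lower), where 15.2% of all genes were called. Between 8C -VE and ENR, 3 of 9 were called (1 higher, 2 lower) beside 3.19% of all genes. VPA and EPZ6438 together in 8C medium (8C against 8C -VE) raised 3 of 10, where 9.06% of all genes rose. The same pair of drugs in ENR medium raised 4 of 9, where 8.13% of all genes rose. Between 8C and ENR +VE, 3 of 10 were lower in 8C, where 2.43% of all genes were. These comparisons share libraries and are not independent of each other. Bmp4 was not tested between 8C -VE and ENR. Between 8C and ENR, between 8C and 8C -VE and between ENR +VE and ENR it passed the minimum mean of 1 TPM only through the condition in which it was high, so that its being tested already required a difference. The same held for Id4 in the comparisons of 8C and of 8C -VE with ENR. Of the other members, 2 of 8 were called between 8C and ENR, 3 of 8 between 8C -VE and ENR, 2 of 9 between 8C and 8C -VE, and 3 of 8 between ENR +VE and ENR. The median log2 fold change of these was -0.039, -0.38, 0.12 and 1.02 in that order, where the medians of all genes lay between 0.01 and 0.09.

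**Figure D1:**
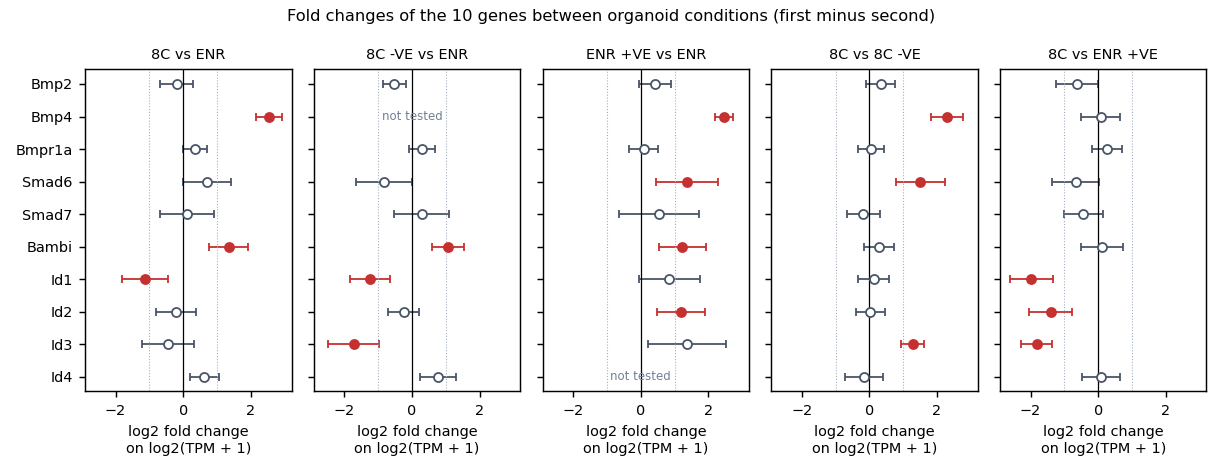
Log2 fold changes of the members on the log2(TPM + 1) scale in organoid comparisons, with bars for 95% confidence intervals. Filled red points were called, open grey points were not, and dotted lines mark a 2-fold change. Id1 is to the left of the line in both comparisons with ENR, Bambi is to the right of it, and Bmp4 lies far to the right wherever VPA and EPZ6438 were both present on one side only.

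Bmp4, a ligand made mainly by the stroma of the intestine, was listed at 0 TPM in all 7 ENR libraries and was present wherever VPA and EPZ6438 were given together. Its level in 8C was 3.14, 4.37 and 7.75 TPM (lowest, median and highest of 7). In ENR +VE it was 5.18, 4.73 and 3.75 TPM. No library of 8C or ENR +VE overlapped with ENR. Against libraries listed at 0 no fold is given. The fitted difference of log2(TPM + 1) was 2.54 ± 0.18 (SE, n = 7 and 7, limma adjusted p = 1.1e-08) for 8C and 2.46 ± 0.12 (n = 3 and 7, limma adjusted p = 7.4e-08) for ENR +VE, and it depends on the added 1 TPM. With a pseudocount of 0.1 TPM it was 5.61 and 5.53.

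Neither drug alone gave that level. Bmp4 reached at most 0.405 TPM in 8C -V (median 0.185), which holds EPZ6438 without VPA. It reached at most 0.339 TPM in 8C -E (median 0.137), which holds VPA without EPZ6438, and at most 1.13 TPM in 8C -VE (median 0.0831). The 3 conditions overlapped with each other and none reached the lowest 8C library. On the log2(TPM + 1) scale 8C was higher by 2.30 ± 0.20 than 8C -V (SE, limma adjusted p = 3e-06), by 2.33 ± 0.19 than 8C -E (limma adjusted p = 9.1e-07) and by 2.29 ± 0.22 than 8C -VE (limma adjusted p = 8.6e-07). Bmp4 and Id3 were the 2 of 10 members called as higher in 8C than in 8C -V (4.09% of all genes), and Bmp4 was the 1 of 10 higher than in 8C -E (3.97% of all genes). Bmp4 passed the minimum mean only through 8C in both, as did Id4 against 8C -E, and of the other members 1 of 9 was called against 8C -V and 0 of 8 against 8C -E.

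The interaction of VPA and EPZ6438, that is, the effect of both minus the sum of the single effects, was tested in a fit of 8C, 8C -V, 8C -E and 8C -VE. For Bmp4 it was 2.35 ± 0.26 log2 units (SE, 95% interval 1.81 to 2.89, limma adjusted p = 4.1e-06). It was 4.17 with a pseudocount of 0.1 TPM and 1.96 with replicates 1 to 3 only. Here too Bmp4 passed the minimum mean only through 8C, at 5.08 ± 1.88 TPM (SD, n = 7), and with no minimum mean the adjusted p was 3e-06 (limma). Bmp4 was the 1 member of 10 called for this interaction, beside 0.438% of all genes called as positive, and 2 of 10 had an unadjusted p under 0.05 (3.81% of all genes). With a minimum mean of 5 TPM, Bmp4 was not tested in any comparison and the count for the interaction was 0.

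Mesenchymal markers were measured beside Bmp4, since stroma is its usual source. The 8 markers summed to between 0.993 and 5.58 TPM in 8C, 0.350 and 1.70 TPM in ENR, 2.69 and 3.59 TPM in ENR +VE, 0.318 and 2.33 TPM in 8C -VE, 1.09 and 2.20 TPM in 8C -V, and 0.812 and 5.13 TPM in 8C -E. In 8C without GSK3iXV they summed to between 4.30 and 6.29 TPM, and without bFGF to between 3.52 and 5.09 TPM. Without Pexmetinib they summed to between 3.41 and 4.62 TPM, and without EGF to between 1.85 and 3.25 TPM. Bmp4 was present in all of these omissions as well. The part of these markers in the Bmp4 level was not tested. Within the list, Col1a1 was 0.636 to 2.23 TPM in 8C, 0.282 to 1.44 TPM in 8C -E and at most 0.0966 TPM in ENR. Des reached 3.56 TPM in 8C, 2.67 TPM in 8C -E and 0.105 TPM in ENR. Col1a2, Col3a1 and Dcn were listed at 0 in every library of ENR +VE and 8C -VE and reached at most 0.117 TPM in 8C.

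Bmp4 lies at chr14:46383520-46390669 on the minus strand of GRCm38. Sequence upstream of its start is shown because its transcript changed with inhibitors of chromatin enzymes, together with that of Smad6 (chr9:63953076-64022059, minus strand), the inhibitory SMAD described below. Both stretches are RefSeq sequence of GRCm38.p6, from 250 bases before to 10 bases after the annotated start, read 5′ to 3′ on the gene's strand. They cover chr14:46390660-46390919 and chr9:64022050-64022309. Capitals mark matches on either strand to GTCTAGAC, a palindrome that SMAD proteins bind, and to CCGCCC, the core of a GC box.
Bmp4: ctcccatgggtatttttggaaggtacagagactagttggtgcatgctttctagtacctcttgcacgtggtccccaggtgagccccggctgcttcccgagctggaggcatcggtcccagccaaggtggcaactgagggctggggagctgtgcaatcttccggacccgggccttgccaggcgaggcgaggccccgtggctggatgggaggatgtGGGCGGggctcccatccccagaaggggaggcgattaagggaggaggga
Smad6: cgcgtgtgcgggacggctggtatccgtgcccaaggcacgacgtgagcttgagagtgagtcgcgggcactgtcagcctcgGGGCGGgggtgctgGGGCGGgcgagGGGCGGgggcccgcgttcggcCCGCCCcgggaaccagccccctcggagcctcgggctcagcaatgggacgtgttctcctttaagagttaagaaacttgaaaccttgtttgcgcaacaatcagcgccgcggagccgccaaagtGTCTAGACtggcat

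Of the 10 members, 6 had a window of 250 bases before to 50 after a RefSeq start (Id2, Id3, Id4, Smad6, Bmp4 and Bmpr1a). GTCTAGAC occurred once in the Smad6 window, with its first base 4 bases before the start, and not in that of Bmp4. Over all genes 70 of 32851 windows (0.213%) held it. The motifs were chosen after the sequences were seen, so these shares do not measure how unlikely a match was. CCGCCC occurred 4 times in the Smad6 window, at 171, 157, 146 and 125 bases before the start, and once in that of Bmp4, at 38 bases before the start, and 35.7% of all windows held it. GGCGCC, another palindrome searched, occurred in neither of these windows and once each in those of Id2, Id4 and Bmpr1a, and 11.9% of all windows held it. The number of CG pairs was 31 in the Smad6 window and 12 in that of Bmp4, where the median of all windows was 7. A match describes these letters only, and binding was not measured.

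Bmp2, the other ligand, stayed between 5.78 and 24.5 TPM across all 49 organoid libraries. It was 10.8, 16.7 and 23.6 TPM in ENR and 8.83, 17.5 and 23.8 TPM in 8C (lowest, median and highest of 7 each), and these ranges overlap almost fully. In ENR +VE it was 24.5, 24.0 and 20.8 TPM, the highest mean of the 10 conditions, and this too overlapped with ENR. The log2 difference of 8C -VE from ENR was -0.52 (limma adjusted p = 0.059) and was not called.

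Bmpr1a, the type I receptor for both ligands, varied little between conditions. It was between 39.1 and 101 TPM over the 49 libraries, with a median of 71.2 TPM. The range was 40.5 to 75.5 TPM in ENR and 47.3 to 97.6 TPM in 8C. Every condition overlapped with its neighbour in the order of mean levels, and the log2 difference between 8C and ENR was 0.34 (limma adjusted p = 0.14).

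**Figure D2:**
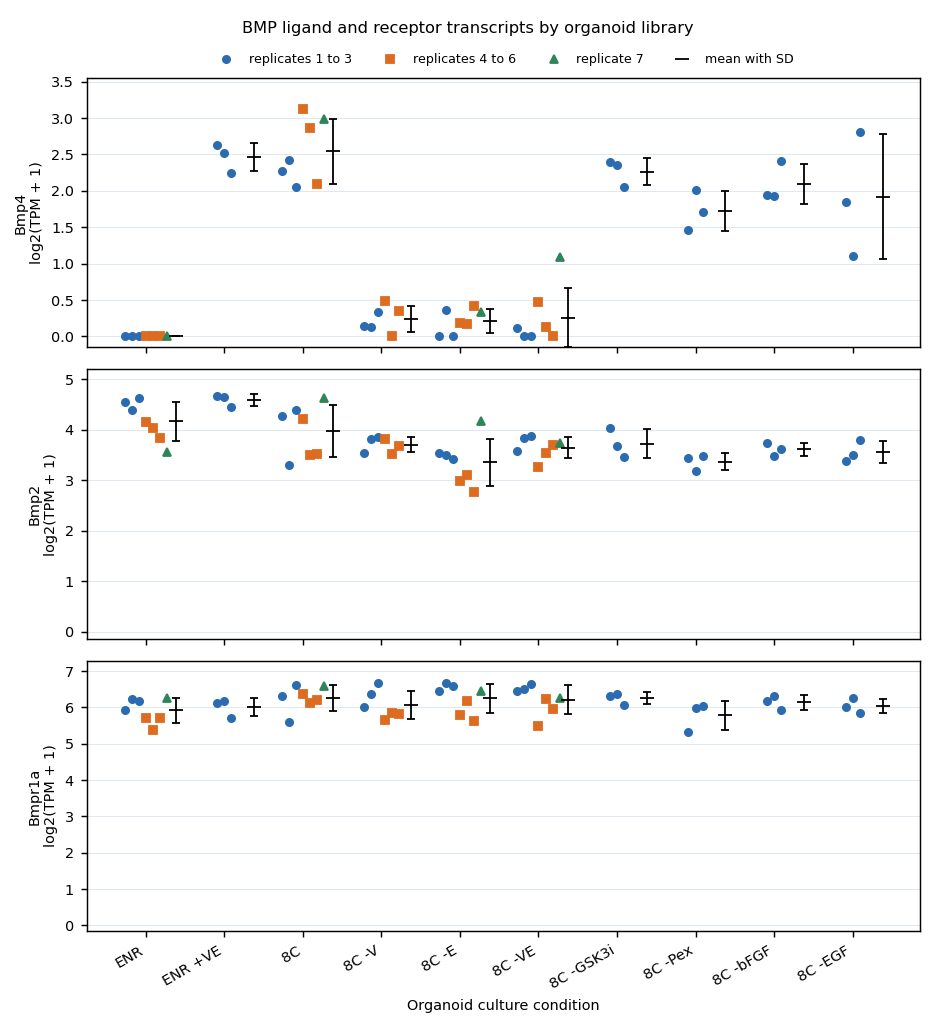
Log2(TPM + 1) of Bmp4, Bmp2 and Bmpr1a in each organoid library, by culture condition, with the mean and SD as black bars and symbols for replicate numbers 1 to 3, 4 to 6 and 7. Bmp4 lies at 0 in ENR and near 0 in 8C -V, 8C -E and 8C -VE and above 3 TPM in every 8C library, while Bmp2 and Bmpr1a overlap between ENR and 8C.

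Bambi, a membrane protein that resembles a type I receptor without a kinase domain, was lowest in ENR. Its level was 1.35, 2.51 and 5.87 TPM in ENR (lowest, median and highest of 7). It was 4.40, 10.3 and 13.5 TPM in 8C and 5.02, 8.04 and 9.19 TPM in 8C -VE. The ENR range touches the low end of both other ranges. Bambi was 2.55-fold higher in 8C than in ENR (log2 1.35 ± 0.27 SE, limma adjusted p = 0.00086) and 2.09-fold higher in 8C -VE (log2 1.06 ± 0.23, limma adjusted p = 0.0071). With quantile normalization these log2 values were 0.93 and 0.97, and with replicates 4 to 6 only they were 0.68 and 0.70, all below the 2-fold minimum. The call for 8C -VE was also lost without ENR replicate 1 (0.98) or ENR replicate 7 (0.94).

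The drugs moved Bambi in ENR medium, where ENR +VE had 8.46, 7.97 and 8.97 TPM. All 3 libraries were above every ENR library, by 2.35-fold on average (log2 1.24 ± 0.31 SE, limma adjusted p = 0.016). With quantile normalization the log2 difference was 0.84 and was not called (limma adjusted p = 0.13), nor was Bambi called without any single ENR +VE library. Within 8C medium the log2 difference of 8C from 8C -VE was 0.29 (95% interval -0.16 to 0.73, limma adjusted p = 0.37). Bambi was highest in 8C without EGF, at 12.3, 14.4 and 15.0 TPM.

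Smad6, which blocks SMAD activation at BMP receptors, was lowest in 8C -VE. In that condition it was 1.11, 2.68 and 1.13 TPM in replicates 1 to 3 and 6.41, 6.73, 4.08 and 6.20 TPM in replicates 4 to 7. In 8C the values were 16.1, 14.1 and 17.5 TPM in replicates 1 to 3 and 7.33, 8.08, 6.62 and 18.1 TPM in replicates 4 to 7. The highest 8C -VE library was just above the lowest 8C library. Smad6 was 2.85-fold higher in 8C than in 8C -VE (log2 1.51 ± 0.34 SE, limma adjusted p = 0.0037). The size differed between sets of replicates, with a log2 difference of 2.72 for replicates 1 to 3 and 0.33 (limma adjusted p = 0.25) for replicates 4 to 6.

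With EPZ6438 and no VPA, Smad6 rose by a similar amount. In 8C -V the level was 8.05, 11.3 and 13.8 TPM (lowest, median and highest of 6), above every 8C -VE library. The log2 difference was 1.40 ± 0.32 (SE, limma adjusted p = 0.017), and it was 2.43 for replicates 1 to 3 and 0.60 for replicates 4 to 6. Smad6 was the 1 of 9 members tested that rose in this comparison, where 2.96% of all genes rose. VPA without EPZ6438 (8C -E, 5.19, 8.03 and 12.3 TPM) overlapped with 8C -VE, with a log2 difference of 0.98 (limma adjusted p = 0.065). That difference too split by replicate set, at 1.99 for replicates 1 to 3 (limma adjusted p = 0.0001) and 0.0075 for replicates 4 to 6, and it was called without 8C -VE replicate 4, 5 or 7 (1.10 to 1.12). Whether 8C -V and 8C -E differed from each other was not tested. 8C differed from 8C -E by 0.53 (limma adjusted p = 0.36). The interaction of the drugs on Smad6 was -0.87 log2 units (limma adjusted p = 1), and with replicates 1 to 3 it was -1.69 and called (limma adjusted p = 0.0099).

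In ENR medium Smad6 was 3.52, 6.00 and 18.04 TPM (lowest, median and highest of 7) and rose to 20.1, 22.5 and 15.5 TPM with VPA and EPZ6438. One ENR library lies within the range of ENR +VE. The rise was 2.57-fold (log2 1.36 ± 0.42 SE, limma adjusted p = 0.041). It was not called without any single ENR +VE library, nor without ENR replicate 3, 4, 5 or 6, nor with a minimum mean of 5 TPM (limma adjusted p = 0.051) or none (0.052). The log2 differences of 8C from ENR (0.69, limma adjusted p = 0.12), of 8C -VE from ENR (-0.82, limma adjusted p = 0.23) and of 8C from ENR +VE (-0.67, limma adjusted p = 0.37) were not called. With replicates 1 to 3 only, 8C -VE against ENR was -1.89 and called (limma adjusted p = 0.00063).

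Smad7, an inhibitor of both BMP and TGF-β receptors, was between 1.12 and 15.8 TPM over all organoid libraries. It was called in none of the reported fits among them, and under the alternatives only without EGF when 8C replicates 1 to 3 were the comparison. The highest value was that of an ENR library, and the other 6 ENR libraries were at or below 5.23 TPM. The range was 2.23 to 6.13 TPM in 8C.

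**Figure D3:**
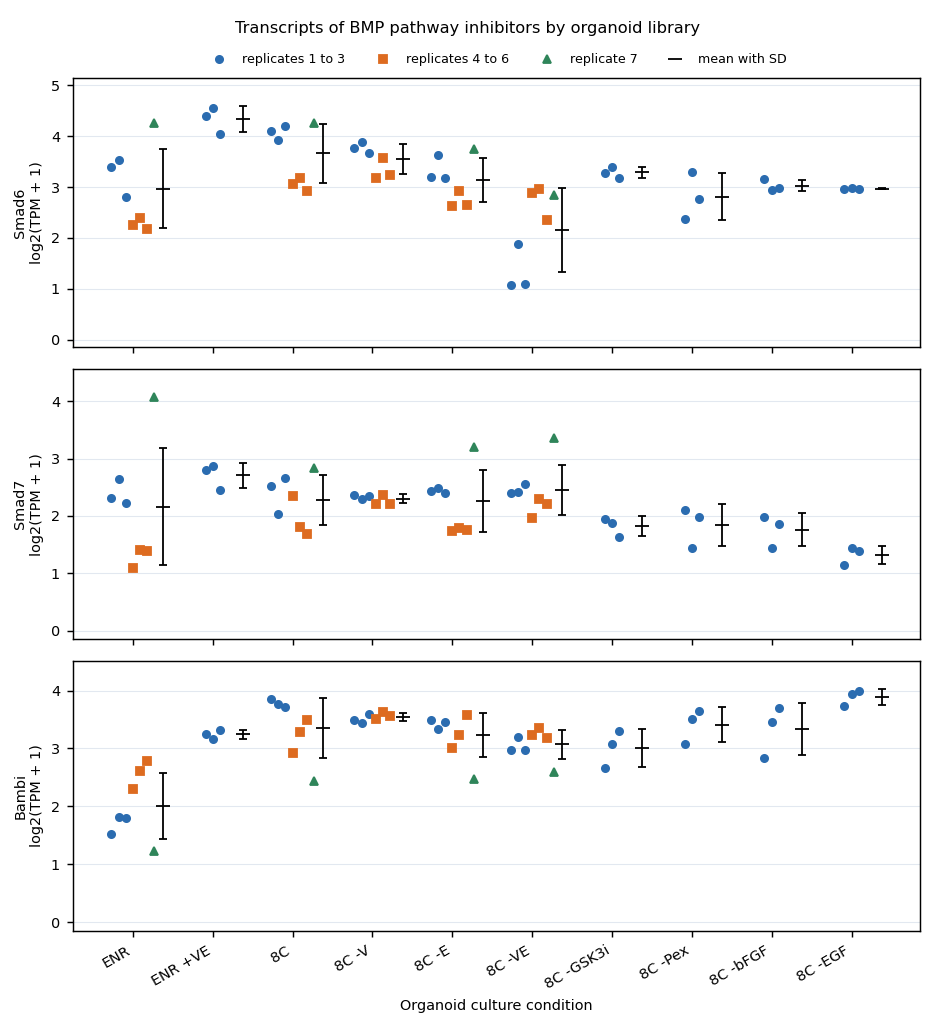
Log2(TPM + 1) of Smad6, Smad7 and Bambi in each organoid library, by culture condition, with the mean and SD as black bars and symbols for replicate numbers 1 to 3, 4 to 6 and 7. Smad6 in 8C -VE splits by replicate number, with replicates 1 to 3 at or below 2.68 TPM and the others at or above 4.08 TPM, and Bambi is lowest in ENR.

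Id1 was lower in 8C -VE and in 8C than in ENR. These media differ in the BMP inhibitor and in other components, which cannot be told apart here. The level of Id1 was 45.3, 77.5 and 235 TPM in ENR (lowest, median and highest of 7). It was 27.9, 35.2 and 44.6 TPM in 8C -VE and 22.1, 36.4 and 69.9 TPM in 8C. No 8C -VE library reached the lowest ENR library, while 8C overlapped with ENR in 2 libraries. Id1 was 2.38-fold lower in 8C -VE than in ENR (log2 -1.25 ± 0.28 SE, limma adjusted p = 0.0099) and 2.18-fold lower in 8C (log2 -1.12 ± 0.32, limma adjusted p = 0.012).

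These falls of Id1 depended on single libraries and on the set of replicates. Without ENR replicate 7, the highest, the log2 difference of 8C from ENR was -0.89, and without 8C replicate 6 it was -0.99, both under 2-fold. With replicates 1 to 3 it was -0.91, and with replicates 4 to 6 it was -1.14 (limma adjusted p = 0.098). For 8C -VE it was -0.64 with replicates 1 to 3. VPA and EPZ6438 did not move Id1 detectably within 8C medium, with a log2 difference of 0.12 (95% interval -0.34 to 0.59).

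Id3 was the Id gene that differed most between the media without epigenetic drugs. In ENR it was 19.4, 20.1 and 22.8 TPM in replicates 1 to 3 and 21.6, 36.4, 75.7 and 118 TPM in replicates 4 to 7. In 8C -VE it was 8.35, 9.57 and 12.5 TPM (lowest, median and highest of 7), below every ENR library. Id3 was 3.30-fold lower in 8C -VE (log2 -1.72 ± 0.35 SE, limma adjusted p = 0.0058).

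With both drugs in 8C medium Id3 was 19.1, 25.0 and 40.2 TPM, above every 8C -VE library. The rise was 2.42-fold (log2 1.28 ± 0.16 SE, limma adjusted p = 1.4e-05). In 8C -V, which lacks VPA, Id3 was 8.73, 11.5 and 14.1 TPM, which overlaps with 8C -VE (log2 difference 0.16, 95% interval -0.12 to 0.43) and lies below every 8C library (log2 difference 1.12 ± 0.18, limma adjusted p = 0.00052, and 0.98, under 2-fold, with replicates 4 to 6 only). In 8C -E, which holds VPA, it was 11.97, 16.2 and 35.3 TPM. The log2 difference of 8C -E from 8C -VE was 0.73, past the adjusted p (0.02, limma) and under 2-fold. The interaction of the drugs on Id3 was 0.40 log2 units and was not called. Between 8C and ENR the log2 difference was -0.45 (95% interval -1.22 to 0.33).

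Id2, a further partner of E proteins, lay in overlapping ranges in ENR (25.9, 34.3 and 90.2 TPM), 8C (18.3, 36.0 and 54.6 TPM) and 8C -VE (28.0, 33.3 and 33.9 TPM), given as the lowest, median and highest of 7. The log2 difference of 8C from 8C -VE was 0.03 (95% interval -0.40 to 0.45). In 8C -E, with VPA alone, Id2 was 34.0, 42.5 and 58.8 TPM, above every 8C -VE library. That difference of 0.47 log2 units passed the adjusted p (0.022, limma) and was under 2-fold. For VPA alone (8C -E against 8C -VE) limma called 0 of 9 members tested (4.18% of all genes), as did eBayes without trend and robust, and 4 had an unadjusted p under 0.05 (20.8% of all genes).

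Id4 was low throughout, between 0.149 and 5.64 TPM. It was 0.323, 0.523 and 1.47 TPM in ENR, 0.656, 2.13 and 2.35 TPM in 8C and 0.715, 1.77 and 5.64 TPM in 8C -VE. These ranges overlap, and the log2 differences from ENR were 0.62 for 8C (limma adjusted p = 0.026, under 2-fold) and 0.78 for 8C -VE (limma adjusted p = 0.061). With a pseudocount of 0.1 TPM both were called (1.12 and 1.34), and with replicates 1 to 3 only 8C against ENR was (1.10).

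**Figure D4:**
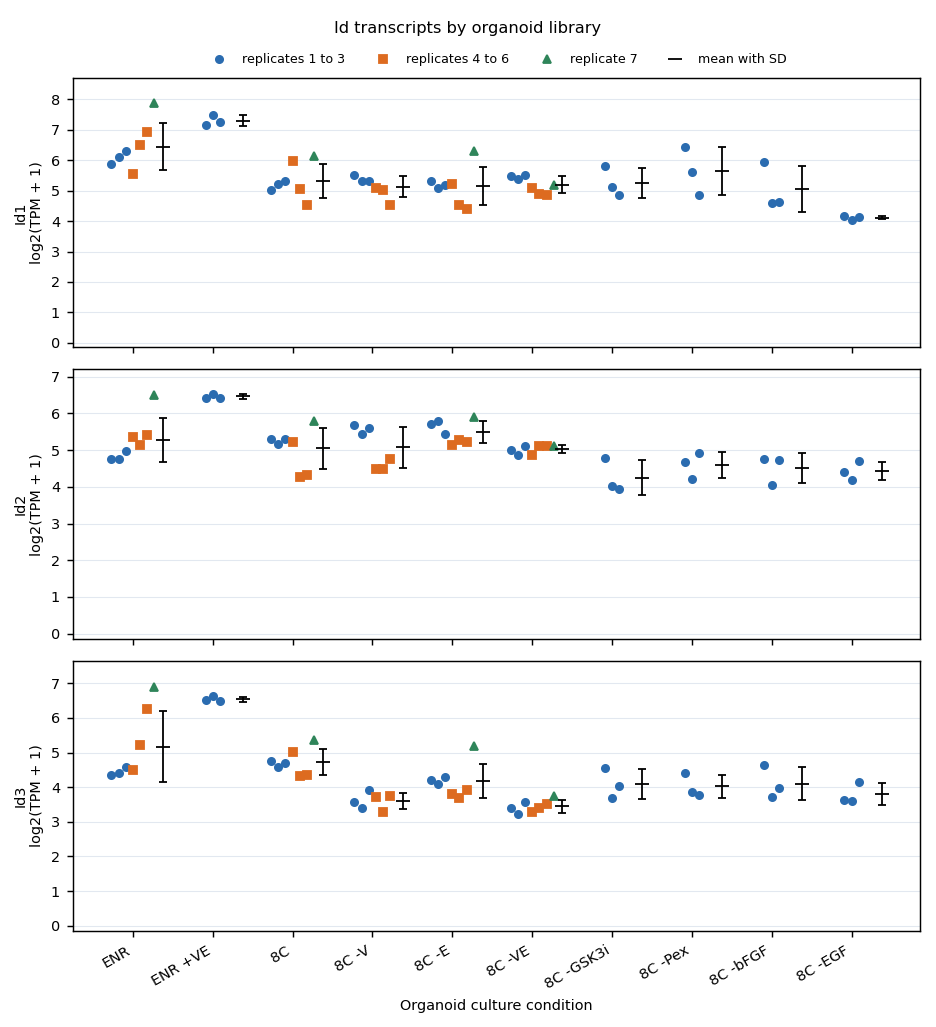
Log2(TPM + 1) of Id1, Id2 and Id3 in each organoid library, by culture condition, with the mean and SD as black bars and symbols for replicate numbers 1 to 3, 4 to 6 and 7. All 3 genes have their highest mean in ENR +VE, Id3 in 8C -VE lies below every ENR library, and Id1 is lowest in 8C -EGF.

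Adding VPA and EPZ6438 to ENR medium gave the highest mean level of Id1, Id2 and Id3 among the 10 conditions. The Paneth cell marker sum of every ENR +VE library was below every ENR library. So were the sums of epithelial markers (6424 to 6559 TPM against 7247 to 11111 TPM) and of immune markers (at most 1.07 TPM). Enteroendocrine markers (1301 to 1353 TPM against 602 to 977 TPM) and mesenchymal markers (2.69 to 3.59 TPM) summed above every ENR library. The enterocyte marker sums overlapped with ENR. The part of all these markers was not tested. Id2 was 85.2, 91.5 and 85.1 TPM in ENR +VE, and 1 of 7 ENR libraries lies in that range. The rise over ENR was 2.29-fold (log2 1.19 ± 0.32 SE, limma adjusted p = 0.022). It was not called when any single ENR +VE library was left out. Without ENR +VE replicate 1 or 2 no member was called, since Bmp4 then fell under the minimum mean as well. Id1 was 141, 180.0 and 151 TPM, and its log2 difference from ENR was 0.85 (95% interval -0.04 to 1.74, limma adjusted p = 0.18). Id3 was 89.9, 97.4 and 89.0 TPM, with a log2 difference of 1.37 (95% interval 0.20 to 2.53, limma adjusted p = 0.098).

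For Id1 and Id3 the outcome turned on the ENR libraries used. With replicates 1 to 3 of both conditions, Id1 rose by 1.20 log2 units (limma adjusted p = 0.00027) and Id3 by 2.10 (limma adjusted p = 4.5e-06), and 6 members were called, beside 11% of all genes. With replicate 7 left out, an alternative added after the data were seen, 6 members were called as well, with 1.09 for Id1 and 1.66 for Id3, beside 9.79% of all genes. ENR replicate 7 held the highest Id1, Id2, Id3, Smad6 and Smad7 of its group and the lowest Bambi.

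The same genes separated 8C from ENR +VE, conditions which both hold VPA and EPZ6438 and differ in the BMP inhibitor and the other components, so that these cannot be told apart. Id1, Id2 and Id3 were lower in every 8C library than in every ENR +VE library. Id1 was 3.93-fold lower (log2 -1.98 ± 0.30 SE, limma adjusted p = 0.0014), Id3 3.52-fold lower (log2 -1.81 ± 0.21, limma adjusted p = 0.00021) and Id2 2.66-fold lower (log2 -1.41 ± 0.29, limma adjusted p = 0.012). Id2 was not called without any single ENR +VE library. Bmp4 had a log2 difference of 0.08 (95% interval -0.50 to 0.66).

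Whether the drugs acted differently in the 2 media was tested as the effect in 8C medium minus that in ENR medium. With limma 0 of 10 members were called, where 0.58% of all genes were, and 2 had an unadjusted p under 0.05 (6.44% of all genes). The difference of effects was -0.73 log2 units for Id1 (limma adjusted p = 0.93) and -1.17 for Id2 (limma adjusted p = 0.27). With replicates 1 to 3 only, 3 members were called, Id1 (-1.47), Id2 (-1.38) and Smad6 (1.64), beside 2.81% of all genes. With replicate 7 left out 1 was called, Id2 (-1.48, limma adjusted p = 0.0079), beside 0.918% of all genes.

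Leaving out GSK3iXV, Pexmetinib, bFGF or EGF from 8C called 0 of 10 members in each case by limma, and also by eBayes without trend and robust. The share of all genes called was 0%, 0.482%, 0.00779% and 0.451% in that order, and 3, 3, 2 and 4 members had an unadjusted p under 0.05, as had 6.53%, 13%, 5.56% and 12.7% of all genes. Without EGF, Id1 was 16.9, 15.6 and 16.6 TPM, below every other organoid library, as was the sum of the enterocyte markers, whose part was not tested. The log2 difference from 8C was -1.21 (limma adjusted p = 0.11). Id3 was 11.4, 11.0 and 16.8 TPM, below every 8C library (log2 difference -0.93, limma adjusted p = 0.11), and so was Smad7 at 1.22, 1.71 and 1.60 TPM (-0.95, limma adjusted p = 0.15). Bambi differed by 0.54 (limma adjusted p = 0.46). Stem cell markers without EGF (1752 to 2525 TPM) and Paneth cell markers (3732 to 4201 TPM) summed above every 8C library. Goblet cell markers (Muc2, Agr2, Tff3 and Fcgbp, 1572 to 1612 TPM) summed below every 8C library. The part of these markers was not tested either.

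With 8C replicates 1 to 3 as the comparison, the omission of EGF called 3 members, Id1 (-1.07), Smad6 (-1.10) and Smad7 (-1.09), where 3.56% of all genes were called. The other omissions then called 1 each, Id2 without GSK3iXV (-1.01), Smad6 without Pexmetinib (-1.26) and Smad6 without bFGF (-1.05), where 7.12%, 6.25% and 5.53% of all genes were called, so that 1 of 10 is near the share of all genes. With 8C replicates 4 to 6 as the comparison, each of the 4 omissions called 0 of 10 members, where 0.0551% (GSK3iXV), 0.821% (Pexmetinib), 0.00784% (bFGF) and 2.67% (EGF) of all genes were called. Without EGF, Id1 was then -1.07 (limma adjusted p = 0.074), Smad7 -0.63 (limma adjusted p = 0.080) and Smad6 -0.088. Smad6 was -0.25 without Pexmetinib and -0.033 without bFGF, and Id2 was -0.35 without GSK3iXV. The differences of Smad6, Smad7 and Id2 were therefore smaller with 8C replicates 4 to 6. That of Id1 without EGF was alike with both sets, and its call was lost through the adjusted p alone. Bmp4 without Pexmetinib was 1.75, 3.04 and 2.26 TPM, below every 8C library, with a log2 difference of -0.82 (limma adjusted p = 0.24).

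The order of mean levels had few steps at which the libraries of neighbouring conditions did not overlap. Only neighbours were compared, and conditions further along the order could still overlap. For Id2 an ENR library at 90.2 TPM lay within ENR +VE, and for Bambi an 8C library at 13.5 TPM lay within 8C -EGF. For Id1 the order ran from ENR +VE (157 ± 20.1 TPM, SD) and ENR (99.3 ± 64.6) through 7 conditions between 34.9 and 53.9 TPM to 8C -EGF (16.4 ± 0.694), and 8C -EGF was the only condition whose libraries did not overlap with those of its neighbour. For Id2 the only such step lay between ENR +VE (87.3 ± 3.63) and 8C -E (45.0 ± 9.71). For Bmp4 it lay between 8C -Pex (2.35 ± 0.646) and 8C -VE (0.241 ± 0.413), and for Bambi between 8C -EGF (13.9 ± 1.42) and 8C -V (10.7 ± 0.5684). Smad7 had 2 such steps, below 8C -V and above 8C -EGF. For Id3, Id4, Smad6, Bmp2 and Bmpr1a every neighbour overlapped.

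Genes whose mean log2(TPM + 1) was most like that of a member over the 10 organoid conditions were ranked by Pearson's r for the 7 members that averaged 5 TPM or more, among 2251 candidates (2252 for Bmpr1a). Id4, Smad7 and Bmp4 were below that mean and were not ranked. For Id1 these were Tmem139 (r = 0.98), Creb3l3 (0.96) and Tesk2 (0.95), and for Id3 they were Gramd3 (0.97), Dao (0.96) and Lipe (0.95). For Id2 they were Zscan22 (0.95), Rspry1 (0.95) and Opn3 (0.95). For Smad6 they were Kbtbd11 (0.94), Fam117a (0.92) and Bahd1 (0.87). For Bambi they were Nt5c3b (0.99), Fam92a (0.97) and Selenoh (0.94). For Bmp2 they were Ndrg1 (0.94), Mab21l3 (0.93) and Nr5a2 (0.91). The closest to Bmpr1a reached 0.84 (Klf9). With 10 points and conditions that share most components, these values describe the conditions only.

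Among 60 other genes of the pathway in 8 lists, 9 of 38 tested were called between 8C and ENR (8 higher, 1 lower), beside the 15.2% of all genes. The other BMP ligands held the call of Bmp8b, at 33.3 ± 28.2 TPM in 8C and 1.74 ± 1.09 TPM in ENR (SD, n = 7 each, log2 3.18, limma adjusted p = 0.00012). Of the extracellular antagonists 3 were higher, among them the follistatin-like gene Fstl1 (10.2 ± 4.19 against 0.730 ± 0.533 TPM, log2 2.66) and follistatin itself, Fst (2.12 ± 1.18 against 0.0367 ± 0.0372 TPM). The homeobox target gene Msx1 was higher (7.21 ± 3.42 against 0.688 ± 0.256 TPM, log2 2.14). The coreceptors went opposite ways, with Rgma higher (log2 1.53) and Rgmb lower (log2 -1.03). Of the TGF-β branch, Tgfb1 (21.2 ± 1.77 against 1.91 ± 2.15 TPM, log2 3.15) and Tgfbr3 (log2 1.94) were higher. Of these 9 calls 5 (Fst, Fstl1, Msx1, Rgma and Tgfbr3) were of genes that passed the minimum mean only through 8C, so that being tested already required the difference, and 4 of the 32 others were called. None of the SMADs, the other intracellular inhibitors or the E proteins was called in this comparison.

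Between 8C -VE and ENR 1 of 33 was called (3.03%), near the 3.19% of all genes. This was Bmp8b (9.90 ± 3.26 against 1.74 ± 1.09 TPM). VPA and EPZ6438 together raised 6 and lowered 1 of 38 in 8C medium, where 10.7% of all genes were called, and raised 4 of 34 in ENR medium, where 8.87% were. Of these, 3 calls in 8C medium (Fst, Rgma and Tgfbr3) and 2 in ENR medium (Fstl1 and Msx1) were of genes that passed the minimum mean only through the condition with the drugs. In ENR medium these were Fstl1 (log2 2.11), Msx1 (2.16), Tbx3 (1.43), a T-box gene also induced by BMP, and Tgfb1 (2.80). In 8C medium Fstl1 (2.57), Msx1 (1.86) and Tgfb1 (2.46) were higher as well, and Rgmb was lower (-1.03).

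Crypts of irradiated mice had much lower levels of Id1, Id2, Id3, Smad6 and Smad7 than Normal crypts on all 4 days. Bambi, Bmp4 and Id4 had a mean under 1 TPM and were not tested, so that 7 of 10 members entered this fit. Of these 7, 5 were lower on day 1, 5 on day 2 and 5 on day 3, where 5.48%, 26.2% and 51.3% of all genes were called lower. These shares moved with the scaling. With quantile normalization they were 1.68%, 7.69% and 13.6%, while 2.95%, 9.66% and 11.1% of all genes were called higher, and 4, 4 and 5 members were lower. On day 5, 6 were called (5 lower, 1 higher), beside 15.8% of all genes. The days share the Normal libraries. Smad6 passed the minimum mean of 1 TPM only through Normal (mean 0.632 TPM over the other 8 groups), so that its being tested already required a difference. Of the 6 others, 4 were lower on each of the 4 days. Their median log2 fold change was -1.51, -1.89, -2.46 and -1.85, where that of all genes was -0.36, -0.61, -1.03 and 0.27.

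Id1 was 634 and 768 TPM in Normal crypts, 153 and 118 TPM on day 1, 90.5 and 66.2 TPM on day 2, 56.7 and 50.7 TPM on day 3, and 116 and 103 TPM on day 5. No irradiated library came near the Normal pair. Id1 was 5.17-fold, 8.91-fold, 12.8-fold and 6.32-fold lower on the 4 days (log2 SE 0.26, limma adjusted p at most 6.4e-05). Id3 was 362 and 418 TPM in Normal, 65.5 and 44.9 TPM on day 1, 40.6 and 27.0 TPM on day 2, 27.2 and 17.2 TPM on day 3, and 73.1 and 79.8 TPM on day 5. It too was lowest on day 3. Its level was 7.06-fold, 11.4-fold, 17.2-fold and 5.04-fold lower on the 4 days (log2 SE 0.26, limma adjusted p at most 2.2e-05).

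Id2 was 54.1 and 60.1 TPM in Normal crypts, and its irradiated libraries lay between 5.65 and 20.5 TPM. The log2 differences were -1.87, -2.48, -2.81 and -2.75 on days 1, 2, 3 and 5 (SE 0.34, limma adjusted p at most 0.0036). On day 1 the difference of Id2 was -1.43 (limma adjusted p = 0.052) without IR day 1 replicate 2.

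The inhibitory SMADs fell with the Id genes. Smad6 was 4.56 and 4.00 TPM in Normal crypts and between 0.0449 and 1.10 TPM in irradiated ones, with log2 differences of -1.68, -1.61, -2.33 and -1.67 (SE 0.23). With no minimum mean, where passing requires no difference, the adjusted p was at most 0.00052 (limma). On day 1 Smad6 was not called when only IR day 1 and Normal were fitted (limma adjusted p = 0.08). Smad7 was 5.24 and 7.42 TPM in Normal crypts and between 0.663 and 3.10 TPM in irradiated ones, with log2 differences of -1.15, -1.30, -2.10 and -1.36 (SE 0.29, limma adjusted p at most 0.021). On day 1 Smad7 was not called without IR day 1 replicate 2 (-0.82, limma adjusted p = 0.19) or without Normal replicate 2. It was also not called on that day with quantile normalization (-0.76), scaling to the 75th percentile (-0.84) or removal of mitochondrial genes (-0.92), or when only the groups compared were fitted. On day 2 the same 3 changes of scale gave -0.61, -0.84 and -0.97, all under 2-fold.

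Bmpr1a was 5.32 and 6.13 TPM in Normal crypts and 15.8 and 15.0 TPM on day 5. It rose 2.44-fold on that day (log2 1.29 ± 0.23 SE, limma adjusted p = 0.0012). With scaling to the 75th percentile the difference was 0.94, under 2-fold. On day 3, at 2.79 and 4.00 TPM, it differed by -0.63 (limma adjusted p = 0.025), and that sign turned with quantile normalization (0.62) and with scaling to the 75th percentile (0.43). Bmp2 was 1.77 and 1.82 TPM in Normal, 4.19 and 2.43 TPM on day 2 (log2 difference 0.59, limma adjusted p = 0.08) and 0.636 and 0.579 TPM on day 3 (-0.80, limma adjusted p = 0.017). The day 3 sign of Bmp2 turned with quantile normalization (0.10), and on day 2 Bmp2 was called as higher with quantile normalization (1.26) and scaling to the 75th percentile (1.05). On day 5 Bmp2 was 0.686 and 0.534 TPM, lower than in Normal, past the adjusted p (limma) and under 2-fold on the log2(TPM + 1) scale. It was lower on that day in every alternative (-1.42 to -0.62), single libraries left out aside. Bmp4 was at or below 0.245 TPM except in an IR day 1 library (4.62 TPM, the other 0) and an IR day 3 +VE library (1.40 TPM).

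**Figure D5:**
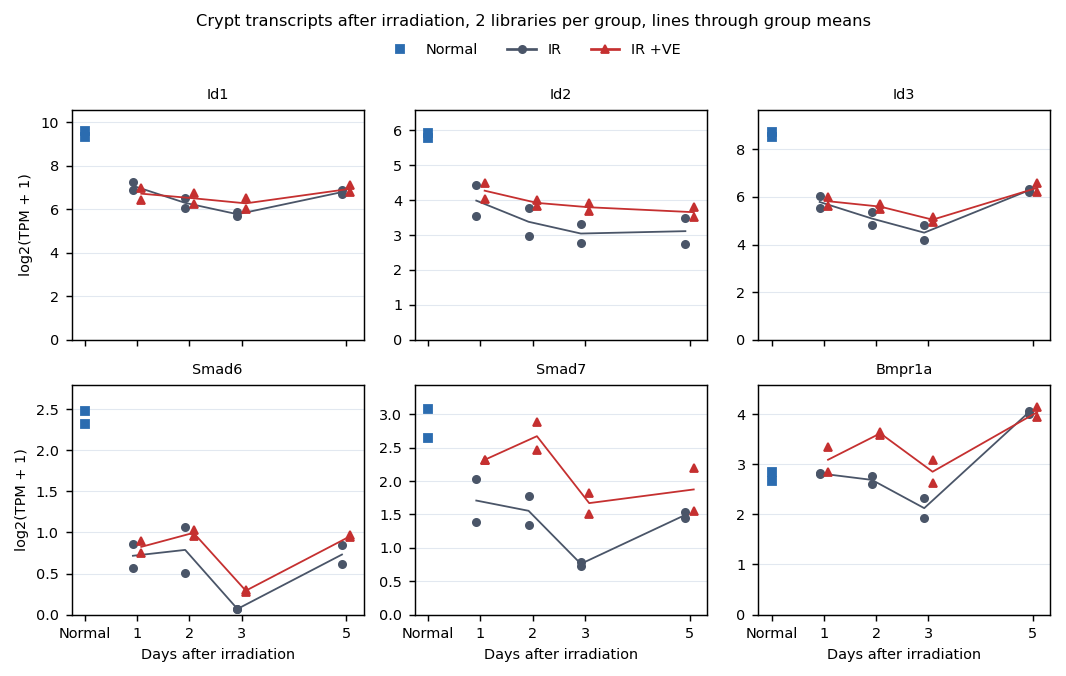
Log2(TPM + 1) of 6 members in crypts, with a point for each of the 2 libraries per group and lines through group means, for Normal crypts and for crypts on days 1, 2, 3 and 5 after 12 Gy without and with VPA and EPZ6438. Id1, Id2, Id3 and Smad6 lie below both Normal libraries in every irradiated library, treated or not, Smad7 overlaps with Normal only with treatment on day 2, and Bmpr1a is highest on day 5.

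Cell markers and RNA composition moved with irradiation too. Stem cell markers summed to between 226 and 419.8 TPM in Normal crypts, 49.8 and 58.9 TPM on day 1, 21.0 and 28.1 TPM on day 2, 22.4 and 27.7 TPM on day 3, and 135 and 184 TPM on day 5. The 7 immune markers summed to between 602 and 1001 TPM in Normal crypts, 507 and 624 TPM on day 1, 848 and 1007 TPM on day 2, 147 and 263 TPM on day 3 and 102 and 109 TPM on day 5. Enterocyte markers summed to between 5554 and 10193 TPM in Normal crypts, 14569 and 15346 TPM on day 1, 18927 and 22195 TPM on day 2, 1543 and 4206 TPM on day 3 and 8479 and 9863 TPM on day 5. Endothelial markers summed to between 0.99 and 1.74 TPM in Normal crypts and to at most 0.807 TPM in every untreated library after irradiation. Mesenchymal markers summed to 6.95 TPM or more in Normal crypts and to no more than 6.07 TPM in untreated crypts of days 2 to 5, and on day 1 the libraries overlapped with Normal, at up to 10.4 TPM. Paneth cell markers summed to between 10360 and 25604 TPM in Normal crypts, 25053 and 25708 TPM on day 1, 5176 and 7425 TPM on day 2, 10742 and 20766 TPM on day 3 and 6262 and 7073 TPM on day 5. Enteroendocrine markers overlapped with Normal (240 and 331 TPM) on days 1 and 2 and were lower on day 3 (135 and 166 TPM) and day 5 (57.3 and 107 TPM). Mitochondrial genes made up 12.7 to 18.1% of TPM in Normal crypts, 29.7 to 31.8% on day 1, 32.6 to 39.9% on day 2, 37.9 to 48.4% on day 3 and 11.8 to 12.3% on day 5. The part of the cell markers and of the mitochondrial share in these results was not tested.

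Treatment of irradiated mice with VPA and EPZ6438 moved few members past the threshold. On day 1 and on day 5 limma called 0 of 7 members (0.00926% and 0.0185% of all genes), none had an unadjusted p under 0.05 (13.2% and 1.65% of all genes), and eBayes without trend and robust called 0 as well. On day 2 it called 1 of 7 as higher (8.31% of all genes, and 0% with quantile normalization, scaling to the 75th percentile or removal of mitochondrial genes). This was Smad7, at 4.51 and 6.37 TPM with treatment and 2.41 and 1.53 TPM without (log2 1.12 ± 0.29 SE, limma adjusted p = 0.035). It was not called under quantile normalization, scaling to the 75th percentile or removal of mitochondrial genes, nor without IR day 2 replicate 2 or either treated library. Bmpr1a, at 10.98 and 11.5 TPM with treatment and 5.78 and 5.11 TPM without, passed the adjusted p (limma) and was under 2-fold. Across the alternatives, single libraries left out aside, it differed by 0.36 to 1.04. Treated crypts of day 2 had a mitochondrial share of 26.3 to 29.2%, below the untreated ones, and enterocyte markers that summed to between 28595 and 29971 TPM, stem cell markers to between 30.9 and 32.2 TPM and endothelial markers to between 0.873 and 0.909 TPM, all above the untreated ones. Epithelial markers (6277 to 6721 TPM) and enteroendocrine markers (285 to 348 TPM) were above the untreated crypts of that day too. The part of the markers and of the mitochondrial share in the values of Smad7 and Bmpr1a was not tested.

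On day 3 limma called 0 of 7 members (31.7% of all genes), as did eBayes without trend and robust, and 4 had an unadjusted p under 0.05 (58.6% of all genes). Id1 was 64.0 and 90.7 TPM with treatment and 56.7 and 50.7 TPM without (log2 difference 0.50, limma adjusted p = 0.11). The differences were 0.75 for Id2 (limma adjusted p = 0.075) and 0.54 for Id3 (limma adjusted p = 0.092). Smad7 (2.55 and 1.85 TPM with treatment, 0.663 and 0.723 TPM without) and Bmpr1a (7.42 and 5.16 TPM against 2.79 and 4.00 TPM) passed the adjusted p (limma). On the log2(TPM + 1) scale both were under 2-fold. Across the alternatives, single libraries left out aside, Smad7 differed by 0.10 to 1.52 and Bmpr1a by -0.25 to 0.87. The median of all genes was 0.69 on that day. With scaling to the 75th percentile Id1 and Id3 were lower instead (-0.24 and -0.18), and with quantile normalization Id2 and Id3 were (-0.10 and -0.033). Treated crypts of day 3 had summed stem cell markers of 59.9 to 75.2 TPM, immune markers of 336 to 343 TPM, epithelial markers of 5265 to 5539 TPM and endothelial markers of 1.49 to 1.83 TPM, all above the untreated ones of that day. Their mitochondrial share was 25.4 to 41.5%, which overlapped with the untreated crypts. Paneth cell markers (21670 to 31009 TPM), enteroendocrine markers (276 to 304 TPM) and mesenchymal markers (7.88 to 21.8 TPM) were above the untreated crypts of that day too. The part of the markers and of the mitochondrial share in the differences was not tested.

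Over the 4 days together limma called 0 of 7 members at 2-fold (3.55% of all genes), 5 had an unadjusted p under 0.05 (61% of all genes), and eBayes without trend and robust called 0. An adjusted p under 0.05 alone was reached by 3 members, all higher, where 54.8% of all genes were higher by that rule. These were Smad7 (log2 0.75, limma adjusted p = 0.0012), Id2 (0.53, limma adjusted p = 0.016) and Bmpr1a (0.48, limma adjusted p = 0.0038), where the median of all genes was 0.36. The differences were 0.12 for Id1, 0.30 for Id3 (limma adjusted p = 0.066) and 0.19 for Smad6.

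Of the other pathway genes in crypts, 30 were tested. Irradiation called 1 on day 1 (6.92% of all genes), 9 on day 2 (3 higher, 6 lower, beside 30.8% of all genes), 16 on day 3 (3 higher, 13 lower, beside 53.8%) and 4 on day 5, all higher (15.8%). As shares of the 30 these are 3.33%, 30%, 53.3% and 13.3%, each below that of all genes. Fst, 1 of the calls on days 3 and 5, passed the minimum mean only through treated crypts of day 3, where it was highest. With quantile normalization 1 was called on day 1, 8 on day 2 (6 higher, 2 lower), 13 on day 3 (5 higher, 8 lower) and 2 on day 5. The E proteins, partners of the Id products, were lower on day 3, Tcf3 at 3.78 ± 1.31 against 31.9 ± 11.6 TPM (SD, n = 2 each, log2 -2.77) and Tcf12 at 1.82 ± 0.482 against 8.59 ± 4.65 TPM (log2 -1.69). With quantile normalization Tcf3 was at -1.54 and Tcf12 at -0.48, the latter not called. Smad1, which carries the BMP signal, was 1.22 ± 0.0578 against 10.9 ± 0.118 TPM on that day (log2 -2.42, and -1.27 with quantile normalization). Tgfbr2, the TGF-β type II receptor, was higher on all 4 days (log2 1.06, 1.64, 1.15 and 2.10). Bmp8b was higher on days 2, 3 and 5, at 1.94, 2.38 and 1.30 TPM on average against 0.0337 TPM in Normal crypts, though on day 5 not with scaling to the 75th percentile (log2 0.87) or removal of mitochondrial genes (0.98). With treatment 18 of 30 were higher on day 3, where 31.6% of all genes were, among them Tcf3 (16.4 ± 0.145 TPM, log2 1.89), Smad1 (log2 1.24) and Tgfbr2 (log2 1.57), where the median of all genes was 0.69. With quantile normalization 4 of 30 were higher, beside 8.17% of all genes, and Tcf3 (1.02) was among them while Smad1 (0.31) and Tgfbr2 (0.71) were not.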

How the data were processed

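Bulk RNA-seq of 49 organoid and 18 crypt libraries was analysed. Libraries had been made with NEBNext Ultra kits and sequenced on Illumina HiSeq instruments. The authors used Trimmomatic 0.39 for trimming, STAR 2.7.3a for alignment to mm10 and featureCounts for counting, and deposited TPM. The steps from counts to TPM are not given in the sources used here. Depth is unknown, so no counting error is given. Listed values summed to 983801 to 988144 TPM in organoid libraries and 819346 to 910935 TPM in crypt libraries, and levels were not compared between them.

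Log2(TPM + 1) was tested, for genes that averaged 1 TPM or more in the libraries of a comparison, with limma 3.58.1 (lmFit, eBayes with trend and robust) in R 4.3.3. Only the conditions compared entered each organoid fit, and all crypt groups entered a single fit. A call needed a Benjamini-Hochberg adjusted p under 0.05 over all genes tested and a 2-fold change. Every member is named in every comparison where it was called, and of other lists at most the 2 largest changes. Members and lists were chosen with earlier results of these data known. Promoter motifs were chosen after the sequences were seen. Promoter windows came from RefSeq (GRCm38.p6) and gene positions from GENCODE on GRCm38, the same build as mm10.

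For organoid conditions with 3 or more shared replicate numbers, these were taken as pairing the samples where every pair of same-numbered libraries correlated over 0.1 in its deviations from the condition means. This held for 8C -VE with ENR (mean r = 0.458), 8C -E with 8C -VE (0.727), 8C -V with 8C -VE (0.723) and 8C with 8C -V (0.419). The reported fits and their p-values do not use this pairing, which entered only as the replicate block among the alternatives. Crypt groups share only 2 numbers (r between -0.197 and 0.308), which were not taken as pairing. Alternatives were quantile normalization, a pseudocount of 0.1, removal of mitochondrial genes, scaling to the 75th percentile, no minimum fold, no minimum mean or one of 5 TPM, plain eBayes, other groups in the fit, a replicate block, sets of replicates and leaving out each replicate. Replicate 7 left out of every group and crossed numbers in crypts were added after the data were seen. In data simulated for 8C against ENR, 94 of 100 genes planted at 1.5 log2 units and 99 of 100 at 2.5 were recovered, and 2 others of 12576 tested were called. For ENR +VE against ENR 87 and 98 were recovered, and for IR day 3 against Normal 79 and 96. Planted genes averaged 5 TPM or more, and the libraries were drawn independently of each other. These rates therefore do not cover members under 5 TPM or differences between sets of replicates.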

Additional observations from a re-analysis of the deposited data

Results flagged for a closer look

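Single libraries stood apart from their group in 3 of the 49 pairs of member and organoid condition tested, by the gap of the highest or lowest library to its nearest neighbour relative to the range of the group. Chance alone gives about 1 in 20 groups. Id2 was 90.2 TPM in ENR replicate 7, where the other 6 libraries were between 25.9 and 41.8 TPM. Id3 was 35.3 TPM in 8C -E replicate 7, where the others were between 11.97 and 18.6 TPM. Smad7 was 9.20 TPM in 8C -VE replicate 7, where the others were between 2.88 and 4.87 TPM. All 3 libraries carry replicate number 7.

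The effect of VPA on Bmp4 differed with the presence of EPZ6438, with an interaction of 2.35 log2 units (limma adjusted p = 4.1e-06). The size depends on the pseudocount (4.17 with 0.1 TPM), and Bmp4 passed the minimum mean only through 8C, so that its being tested already required a high level there. Bmp4 was between 3.14 and 7.75 TPM in 8C and at most 1.13 TPM in each library that lacked 1 or both drugs.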

How the results depend on the processing

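Counts of members called stayed within 1.5 times the reported count in 252 recomputations and moved further in 32, single libraries left out aside. Replicate sets moved them most. With replicates 4 to 6 only, 1 member was called between 8C and ENR, 0 between 8C -V and 8C -VE and 1 between 8C and 8C -V. With replicates 1 to 3 only, 1 was called between 8C -E and 8C -VE, 1 each for the omission of GSK3iXV, Pexmetinib and bFGF, 3 for that of EGF (each 0 with 8C replicates 4 to 6), 2 for the interaction of VPA and EPZ6438 and 3 for the difference of drug effects between media, for which 1 was called without replicate number 7. With a minimum mean of 5 TPM fewer members were tested, and the counts were 1 (8C against 8C -V), 0 (8C against 8C -E), 1 (ENR +VE against ENR), 0 (interaction of the drugs) and 3 each on IR days 1, 2 and 3. IR day 1 gave 3 when only the groups compared were fitted. Without a minimum fold, 2 were called for 8C -E and for 8C -V against 8C -VE, 2 each for treatment on days 2 and 3, and 3 for treatment over all days. With a pseudocount of 0.1 these treatment counts were 2, 2 and 1. Treatment on day 2 gave 0 under quantile normalization, scaling to the 75th percentile, removal of mitochondrial genes, a minimum mean of 5 TPM and no minimum mean. Apart from the smaller numbers of genes or libraries in some of these, the cause was not tested.

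Directions turned in 21 recomputations of members, none of them called in the reported fit. With replicates 1 to 3, 8C against ENR gave 0.43 for Id2 (limma adjusted p = 0.032) and 0.24 for Id3. With replicates 4 to 6, Smad6 was 0.46 in 8C -VE against ENR and Bambi -0.016 in 8C against 8C -VE. The difference of drug effects between media for Smad6, 0.15 as reported, was -0.050 without replicate number 7 and -0.067 to 0.28 with single libraries left out, below 0 without 8C -VE replicate 1 or 3 or ENR replicate 7. In crypts on day 3, quantile normalization gave 0.10 for Bmp2 and 0.62 for Bmpr1a against Normal, and scaling to the 75th percentile gave 0.43 for Bmpr1a. For treatment on day 3, quantile normalization gave -0.10 for Id2, -0.033 for Id3 and -0.25 for Bmpr1a, and scaling to the 75th percentile gave -0.24 for Id1 and -0.18 for Id3. Over all days, Id1 was -0.13, -0.26 and -0.049 with quantile normalization, scaling and removal of mitochondrial genes, and Id3 was -0.032 and -0.081 with the first and second of these.

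Leaving out single libraries gave counts of 0 to 1 for 8C -E against 8C -VE, 0 to 6 for ENR +VE against ENR, 0 to 1 for the omission of EGF, 0 to 1 for the difference between media, 3 to 5 for IR day 1, and 0 to 2 and 0 to 1 for treatment on days 2 and 3. Where a group was left with 1 library, that library is assumed to vary like the other groups. In a fit with the number of the replicate as a replicate block, ENR +VE against ENR called 6 members instead of 4, adding Id1 (1.20) and Id3 (2.10), and no other count moved by over 1.5 times. Every library correlated best with its own number between 8C -E and 8C -VE and between 8C -V and 8C -VE. In crypts, crossed numbers gave 5 calls on days 1 and 2, as reported. Among all genes called, those higher made up 78.3% for 8C against ENR, 84.9% for 8C against 8C -VE and 91.7% for ENR +VE against ENR, and 64.6%, 72.4% and 75.5% after quantile normalization. Since TPM keeps no read numbers, the precision of members under 1 TPM is unknown.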
